A study of Mus musculus with 6 samples.

Results

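ATACseq reads open chromatin through a transposase that cuts accessible DNA, and the peaks described here are those that lie farthest from any gene start. They were chosen by position and presence: a consensus peak had to hold a stretch shared by both replicate libraries in each of the 3 oxygen conditions, to overlap no annotated gene body, and to lie more than 50000 bp from the nearest transcription start site (TSS) of the GENCODE M21 basic set on mm10. The rule selected 841 peaks of the 28197 consensus peaks found in all 3 conditions (2.98%), and of 41308 consensus peaks in all. The cells were GL261, an established mouse glioma line, carrying a stable pEGFP-N1 (GFP) vector in every group. Oxygen was set to 21% (normoxia), 1% or <0.1% for 16 h before fixation in formaldehyde, and each condition has 2 libraries. The labels do not say that the 2 libraries came from separate cultures, so the spread given here may be technical.

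Open chromatin far from genes is mostly made of enhancers, insulator sites and repeat-derived elements. Enhancers are short stretches of DNA where transcription factors displace nucleosomes and act on promoters that can be far away, and they tend to be specific to a cell type. AP-1, a dimer of Fos and Jun family proteins that responds to growth and stress signals, is one of the factors most often found at such sites. CTCF is a zinc-finger protein that marks insulators and loop anchors. In hypoxia the HIF factors bind a short element called the HRE. The protein-coding gene with the nearest TSS, or for Zxda the pseudogene, is named below as an address only, since other annotated genes often lie closer and a distant element can act on another gene.

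The sequences of 6 of these peaks are shown because the results turn on them, and each runs 100 bases to either side of the summit in mm10, on the plus strand. The Xylt1 and Qk peaks rose most at <0.1% O2, and the Sox9 and Maf peaks hold the AP-1 element but were not called higher in fold rank, although the Sox9 peak was in pileup rank at <0.1% O2. The Csmd1 peak fell most at 1% O2, and the Zxda peak was the highest of all and holds a CTCF motif. Capitals mark each match to the AP-1 motif TGAGTCA, read on either strand, so that a match on the minus strand reads TGACTCA.
Peak nearest to Xylt1, chr7:117090977-117091177: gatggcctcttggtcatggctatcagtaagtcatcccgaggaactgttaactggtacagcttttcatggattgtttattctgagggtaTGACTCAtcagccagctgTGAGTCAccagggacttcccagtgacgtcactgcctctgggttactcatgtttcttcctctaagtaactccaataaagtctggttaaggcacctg
Peak nearest to Qk, chr17:10378614-10378814: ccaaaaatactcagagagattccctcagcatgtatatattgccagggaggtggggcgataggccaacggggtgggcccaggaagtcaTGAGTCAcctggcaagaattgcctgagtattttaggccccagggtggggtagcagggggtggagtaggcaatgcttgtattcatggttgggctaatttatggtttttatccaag
Peak nearest to Sox9, chr11:113001074-113001274: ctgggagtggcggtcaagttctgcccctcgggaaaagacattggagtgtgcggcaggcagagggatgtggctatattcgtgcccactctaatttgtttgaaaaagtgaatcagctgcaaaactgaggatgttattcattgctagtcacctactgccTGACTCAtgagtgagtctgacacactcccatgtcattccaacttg
Peak nearest to Maf, chr8:115771091-115771291: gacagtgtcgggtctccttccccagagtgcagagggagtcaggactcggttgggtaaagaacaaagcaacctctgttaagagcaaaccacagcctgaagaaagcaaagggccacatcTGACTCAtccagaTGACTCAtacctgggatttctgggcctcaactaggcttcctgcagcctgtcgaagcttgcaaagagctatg
Peak nearest to Csmd1, chr8:17600464-17600664: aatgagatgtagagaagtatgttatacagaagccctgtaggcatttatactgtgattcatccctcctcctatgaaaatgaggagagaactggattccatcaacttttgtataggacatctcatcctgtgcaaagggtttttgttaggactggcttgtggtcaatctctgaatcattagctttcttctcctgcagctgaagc
Peak nearest to Zxda, chrX:94865652-94865852: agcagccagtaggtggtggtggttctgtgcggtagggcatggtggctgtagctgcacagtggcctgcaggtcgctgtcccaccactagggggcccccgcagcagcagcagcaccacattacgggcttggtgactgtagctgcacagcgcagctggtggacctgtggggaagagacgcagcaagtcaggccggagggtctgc

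The Xylt1 peak holds an AP-1 match on each strand, and the Maf peak holds 2 on the same strand. The Qk and Sox9 sequences hold 1 each, while those near Csmd1 and Zxda hold none.

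The 841 peaks had a median width of 695 bp and a median GC content of 46.2%, against 59.5% for promoter peaks (within 2000 bp of a TSS). The median distance to the nearest TSS was 76011 bp and the highest was 483614 bp. Of the peaks, 613 lay between 50000 and 100000 bp from a TSS and 228 beyond that. Measured to the nearest protein-coding TSS, the median distance was 135491 bp, since the nearest TSS was that of a coding gene for 230 peaks, of a processed pseudogene for 195 and of a lincRNA for 188. At the edge of the rule, the 3 peaks just inside lay 50020, 50030 and 50040 bp from a TSS and the 3 just outside 49937, 49914 and 49910 bp. No other peak of the 3 conditions lay within 50000 bp of 348 of the 841 (41.4%), a distance within which the rule itself leaves no TSS. Where neighbours did gather within short gaps, they formed 92 groups that held 202 peaks, and 15 of these groups held 3 or more.

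Peak height was read in 2 ways. The fold, as deposited, is the summit over its local background, and the summit pileup is the number of fragments stacked at the summit, recovered from the fold and p-value. Both were ranked, as percentiles, among the 28432 consensus peaks that had a peak in all 6 libraries, so a rank of 90 means taller than 90% of them. All 841 peaks were ranked and their mean fold ranks ran from 1.46 to 99.6. Genome coverage, the mean number of fragments over a base, was 2.16 and 2.36 in normoxia and 2.93 to 3.35 in the hypoxic libraries, so depth and hypoxia cannot be told apart in any comparison with normoxia. Ranks remove a common scale but not other effects of depth. Promoter peaks were found for 6 of 8 glial and glioma markers (Sox2, Olig2, Nfib, Nes, Vim and Gfap, not Sox9 or Nfia), for 1 of 3 neuronal markers (Syt1), 0 of 4 immune and 0 of 3 endothelial markers. In the longer gene lists used below they were found for 40 of 49 glial and glioma, 6 of 14 neuronal, 1 of 10 immune and 0 of 5 endothelial genes.

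The peaks far from genes were short in fragments and sat on little background. The median pileup rank was 30.5 and 30.4 in normoxia, 29.4 and 29.9 at 1% O2 and 35.1 and 35.3 at <0.1% O2. It lay below that of the other 27356 peaks in all 6 libraries, by a mean of 19.2 ± 2.73 points (SD, n = 6, two-sided exact sign-flip permutation test over libraries, p = 0.0312, adjusted p = 0.0341 over 12 tests). The distance from intergenic peaks nearer to genes was 5.16 ± 1.43 points and from promoter peaks 31.2 ± 5.63 points, with the same exact p, the smallest this design gives. The difference from promoter peaks was -34.8 and -35.1 points in normoxia, -35.2 and -34.2 at 1%, and -23.7 and -24.2 at <0.1% O2. The local background had a median between 1.60 and 1.72 times the genome coverage in the 6 libraries, while that of promoter peaks was 3.61 and 4.11 in normoxia and 3.09 and 2.84 at <0.1% O2. It is read over 10 kb, which can hold the peak itself and its neighbours, so background and pileup are not independent. For the peaks far from genes the mean of a condition differed from that of another by less than the normoxic replicates differed.

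Because fold divides by that background, the order changed when fold was ranked. The median fold rank was 46.0 and 46.7 in normoxia, 46.5 and 43.5 at 1% and 49.6 and 47.0 at <0.1% O2. It stood above the nearer intergenic peaks by 5.27 ± 1.88 points in 6 of 6 libraries and below promoter peaks by a mean of 11.8 ± 4.46 points (exact sign-flip test, adjusted p = 0.0341 for both). The difference from promoter peaks was -15.5 and -13.6 points in normoxia, -12.9 and -16.0 at 1%, and -4.47 and -8.53 at <0.1% O2. Against gene body peaks the difference was 0.359 ± 2.24 points, higher in 3 libraries and lower in 3 (exact p = 0.656). By library it was 2.65 and 2.45 points in normoxia, 1.90 and -1.68 at 1%, and -0.761 and -2.41 at <0.1% O2. The difference changed by -4.14 points at <0.1% O2, where it lay below both normoxic libraries (exact permutation test, 2 against 2, p = 0.333, the smallest possible). Against all other peaks it was -3.89 ± 1.99 points (exact adjusted p = 0.0341), but this turned to 0.565 (exact p = 0.594) for the 228 peaks over 100000 bp from a TSS and was -0.591 (exact p = 0.5) with −log10 q of at least 10 in every library.

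**Figure D1:**
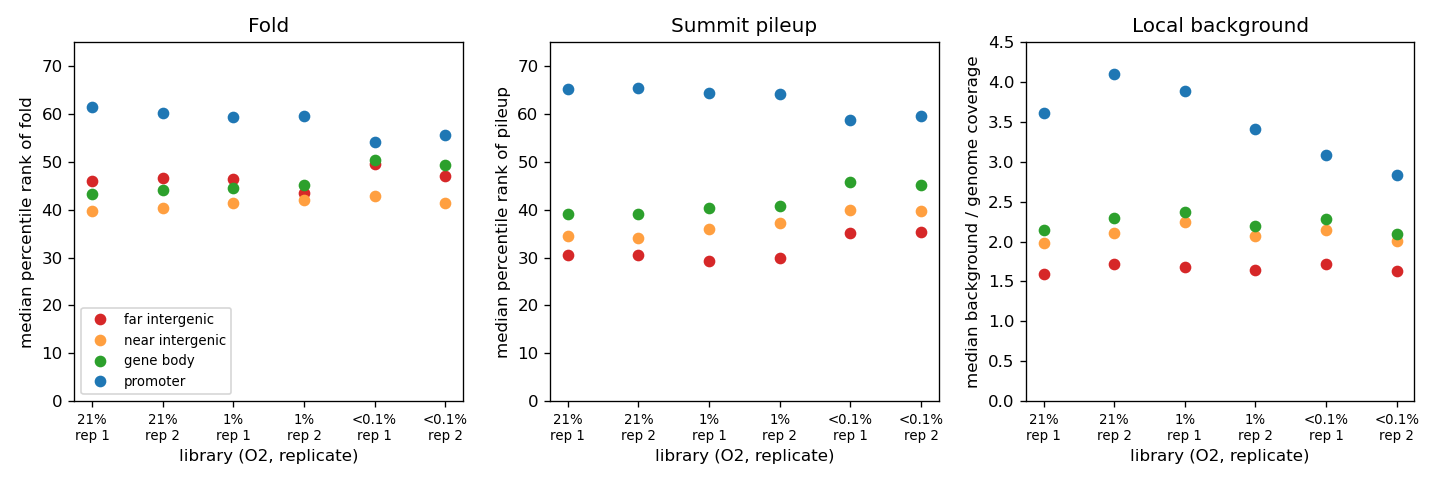
Median percentile rank of fold (left), of summit pileup (middle) and median local background over genome coverage (right) in each of the 6 libraries, for 4 classes of peaks found in all 3 conditions, with 1 point per library and no error bars. The 841 far intergenic peaks have the lowest pileup rank and background in every library, while their fold rank lies close to that of gene body peaks.

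The tallest of the 841 by mean fold rank was a peak of 540 bp 67395 bp from the pseudogene Zxda on the X chromosome, chrX:94865578-94866117, which is the one of the 5 tallest that holds a CTCF motif. Its fold was 18.9 and 19.0 in normoxia, 21.0 and 22.4 at 1% and 19.2 and 18.5 at <0.1% O2. The second, chr1:143941447-143941849, lay 62183 bp from Rgs2, a regulator of G-protein signalling, with folds of 17.8 and 17.4, 20.3 and 22.6, and 20.6 and 18.1 in the same order. The other three, chr13:78809618-78810178, chr5:55355291-55356050 and chr5:4432139-4432722, lay 609861 bp from Nr2f1, 1356726 bp from Stim2 and 239772 bp from Mterf1b, their nearest coding genes. At these fold ranks a rise of 10 points is not possible. In pileup rank the Rgs2 peak was called higher at both levels, by 14.6 and 18.9 points, with pileups of 88 and 107 fragments in normoxia, 186 and 198 at 1% and 214 and 172 at <0.1% O2.

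The most remote peak, chr2:134068035-134068344, lay 483614 bp from a TSS in the region around Hao1. Its fold was 8.23 and 8.34 in normoxia, 7.13 and 8.51 at 1% and 9.20 and 4.78 at <0.1% O2, so its conditions overlapped in fold, although in rank it was called lower at 1% O2, by -15.5 points. A second peak of that region, chr2:134106472-134106828, had folds of 5.70 and 4.47 in normoxia, 8.91 and 8.90 at 1% and 10.6 and 6.70 at <0.1% O2, higher in all 4 hypoxic libraries. Of a pair 452926 and 466951 bp from a TSS, with Acvr2a as the nearest coding gene, 1 rose in rank by 22 and 29.1 points at 1% and <0.1% O2 and the other had changes of -5.93 and -3.18 points, although in pileup rank it was called higher at <0.1% O2, by 10.2 points. The fifth, chr18:18762411-18763273, lay 369944 bp from a TSS and had folds of 12.7 and 12 in normoxia, 13.6 and 12.3 at 1% and 8.73 and 8.33 at <0.1% O2. It was called lower at <0.1% O2, by -41.6 points in fold rank and -22.5 points in pileup rank, and 60.7% of its window was repeat-masked.

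Hypoxia was then compared with normoxia peak by peak. Calling a peak required both libraries of one condition to lie beyond both of the other, and its average rank to shift by 10 percentile points or more. The smallest p an exact permutation of 2 libraries against 2 can give is 0.333, so a call carries no p-value and is read against the share of all 28432 ranked peaks called alike. At 1% O2, 139 of the 841 peaks (16.5%) were called higher, where 16.6% of all ranked peaks were, and 206 (24.5%) were called lower, where 18.5% of all were. At <0.1% O2, 160 (19.0%) were called higher against a background of 19.3%, and 156 (18.5%) lower against 19.9%. The share called was therefore near the background in 3 of the 4 counts. With ranks taken over every peak of a library's own list, 203 were called higher and 111 lower at 1% O2, where 25.4% and 8.57% of all were. At <0.1% O2 208 were called higher and 100 lower, where 25.8% and 12.7% of all were. More were then called higher than lower, as among all ranked peaks. The median change of the peaks was -2.23 points at 1% O2 and -0.615 points at <0.1% O2, although the median rank of the libraries moved by 1.99 points upward at <0.1% O2. With whole lists ranked these medians turned to 1.89 and 2.60 points, and with the GC trend subtracted the second was -3.47 points.

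Ranks of pileup gave another split at <0.1% O2. There 209 peaks were called higher and 113 lower, where 20.7% and 21.5% of all ranked peaks were, and the median change was 1.84 points. With the trend of rank on GC content subtracted, the fold calls became 132 higher and 209 lower, where 19.5% and 19.7% of all ranked peaks were. At 1% O2 pileup gave 116 higher and 181 lower (background 16.4% and 17.0%). Between the hypoxic conditions, 166 peaks were called higher in fold rank at <0.1% than at 1% O2 (background 15.8%) and 93 lower (15.2%), and pileup gave 211 and 44 (13.1% for both). With the GC trend subtracted the fold calls were 110 and 144 (14.9% and 14.3% of all). Whether more of the 841 peaks were called higher or lower at <0.1% O2 thus differed with how height was scaled. At 1% O2 it turned only with whole lists ranked, where more of all ranked peaks were called higher too (25.4% against 8.57% lower). With 20 points required for a call, 72 were higher and 83 lower in fold rank at 1% O2 (7.72% and 6.31% of all ranked peaks), 94 and 68 at <0.1% O2 (8.92% and 8.82%), and 47 and 40 between the levels (3.99% and 5.29%).

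The AP-1 element was the most frequent of the motifs sought. The motif TGAGTCA, searched on both strands within 100 bases of the summit, occurred in 221 of 841 peaks, 26.3% (95% exact binomial interval 23.3 to 29.4%), and 31 peaks held 2 or more. In flanking windows of the same length 1000 bp away it occurred in 3.63%. The share was 25.7% in gene body peaks, 23.2% in nearer intergenic peaks and 5.73% in promoter peaks, and 16.0% over all peaks of the 3 conditions. The matches gathered at the summit: 10.2% of the peaks had one in the 50 bp to the left of it and 9.99% in the 50 bp to the right, against 0.357 to 1.43% in the bins 350 bp or more away. The peak with the most matches, 5 in its window, was chr6:143365832-143366250, with Etnk1 as the nearest coding gene.

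**Figure D2:**
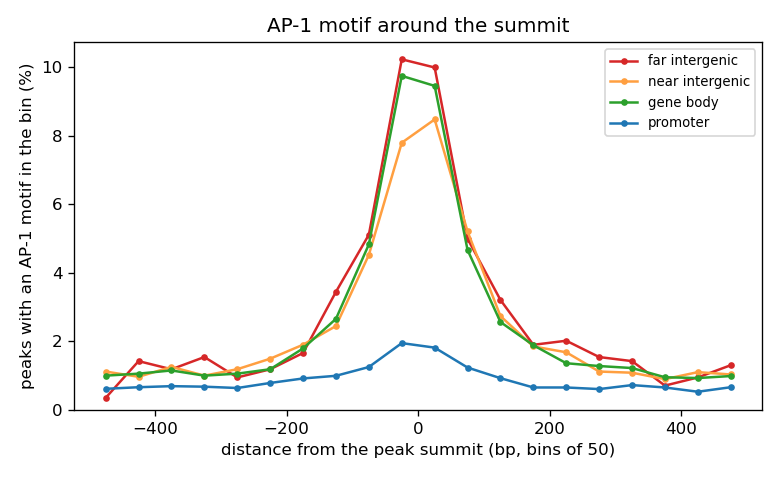
Share of peaks (%) with a match to the AP-1 motif in each 50-bp bin from the peak summit (x axis, bp), for 4 classes of peaks found in all 3 conditions. In far intergenic peaks the share is near 10% in the 2 bins next to the summit and 0.357 to 1.55% in the bins 300 bp or more away.

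Motifs common at promoters were rare in these peaks. The GC box GGGGCGG, bound by Sp and KLF factors, occurred in 2.85% of them and in 33.9% of promoter peaks, and the ETS motif CCGGAAGT in 0.713% against 5.46%. The NRF1 motif GCGCATGCG occurred in 0 of 841, which allows a share of up to 0.438% (exact binomial 95% bound), against 2.52% in promoter peaks. The CTCF motif occurred in 15 peaks, 1.78% (interval 1.00 to 2.92%), where nearer intergenic peaks had 4.03% and promoter peaks 1.24%. The share was 0.439% for the peaks over 100000 bp from a TSS and 0.238% around the midpoint of the peak. The TEAD motif ACATTCC was in 5.83%, the SOX motif ACAATGG in 5.23% and the E-box CAGCTG in 16.6%, against 2.73%, 4.10% and 7.19% of the flanks. C/EBP sites, TTGCNNAA, were in 11.1% of the summits and 10.9% of the flanks. The core of the HRE, ACGTG, was in 10.6%, below the 18.4% of promoter peaks, while the flanks had it in 6.66% and 10.8%. A match describes the letters of the window, not a bound site.

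Peaks with the AP-1 element moved upward in hypoxia relative to those without it. The split by condition was looked at after the values had been seen. In the 221 peaks with the element, 68 (30.8%) were called higher and 17 (7.69%) lower at <0.1% O2, while in the 620 without it 92 (14.8%) were called higher and 139 (22.4%) lower, where 19.3% and 19.9% of all ranked peaks were. At 1% O2 59 (26.7%) were called higher and 35 (15.8%) lower with the element, and 80 (12.9%) higher and 171 (27.6%) lower without it, where 16.6% and 18.5% of all were. With ranks over every peak of a library's own list, the peaks without the element gave 130 higher and 95 lower at 1% O2, and 128 and 94 at <0.1% O2. Those with it gave 73 and 16, and 80 and 6. In that ranking 25.4% of all ranked peaks were called higher and 8.57% lower at 1% O2, and 25.8% and 12.7% at <0.1% O2. The 17 called lower became 30 without 21% O2 replicate 1, 33 without replicate 2 and 32 without <0.1% O2 replicate 1, where 72, 85 and 71 were called higher, and 29 with the GC trend subtracted, where 56 were. Leaving out a library loosens the call for every peak. Without those libraries, in the same order, the 139 called lower without the element became 171, 190 and 184. The 80 called higher at 1% O2 without the element became 127 without 21% O2 replicate 2. The share of all ranked peaks called under the looser rule was not computed. The median rank with less that without was 7.66 and 9.48 points in normoxia, 12.9 and 14.5 points at 1% O2, and 20.8 and 19.7 points at <0.1% O2. The 3 conditions did not overlap, and the gap grew by 5.18 points at 1% and 11.7 points at <0.1% O2 (exact permutation test, 2 against 2, p = 0.333 for each, the smallest possible). The replicates of a condition differed by 1.82 points or less. With the hypoxic libraries taken as one group the exact p, 4 against 2, was 0.133.

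Ranked by pileup, the gap was 4.63 and 5.97 points at 21% O2, 10.3 and 11.5 points at 1% O2, and 16.5 and 15.2 points at <0.1% O2. The exact p, 4 against 2, was 0.0667 here, the smallest possible. In pileup rank 100 of the 221 peaks (45.2%) were called higher and 12 lower at <0.1% O2, while of those without the element 109 (17.6%) were called higher and 16.3% lower, where 20.7% and 21.5% of all ranked peaks were. Without the peaks whose window is mostly repeat the gap still grew by 4.75 and 9.50 points, and with the GC trend subtracted by 5.40 and 11.9 points. For the peaks over 100000 bp from a TSS it grew by 6.98 points at <0.1% O2 but changed by -0.478 points at 1% O2. Peaks with 0, 1 and at least 2 matches had median changes at <0.1% O2 of -2.04, 3.17 and 7.89 points. The 31 peaks with 2 or more had library medians of 37.3 and 54.4 in normoxia, so the normoxic replicates stood farther apart than this change. At <0.1% O2 their library medians, 58.2 and 63.7, overlapped those of the peaks with 1 match, 65.4 and 61.4.

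The widening was not particular to these peaks. In nearer intergenic peaks the gap grew by 11.4 points at <0.1% O2, in gene body peaks by 11.7 points and in promoter peaks, where those with the element were lower to begin with, by 15 points. Whether these growths differ between classes was not tested.

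The HRE core was read in the same way. Of the 89 peaks with it, 18 (20.2%) were called higher and 22 (24.7%) lower at 1% O2, where 16.6% and 18.5% of all ranked peaks were. At <0.1% O2, 21 (23.6%) were called higher and 17 (19.1%) lower, where 19.3% and 19.9% of all were, and in pileup rank 33 (37.1%) were called higher and 14 (15.7%) lower, where 20.7% and 21.5% were. Peaks with the core had a lower median fold rank than those without it in all 6 libraries, by 10.1 and 12.2 points in normoxia, 4.71 and 3.36 points at 1% and 8.45 and 8.88 points at <0.1% O2, so in fold the gap was narrower in each hypoxic library than in both normoxic ones (exact permutation test, 4 against 2, p = 0.133). In pileup rank the conditions overlapped (exact p = 0.733).

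**Figure D3:**
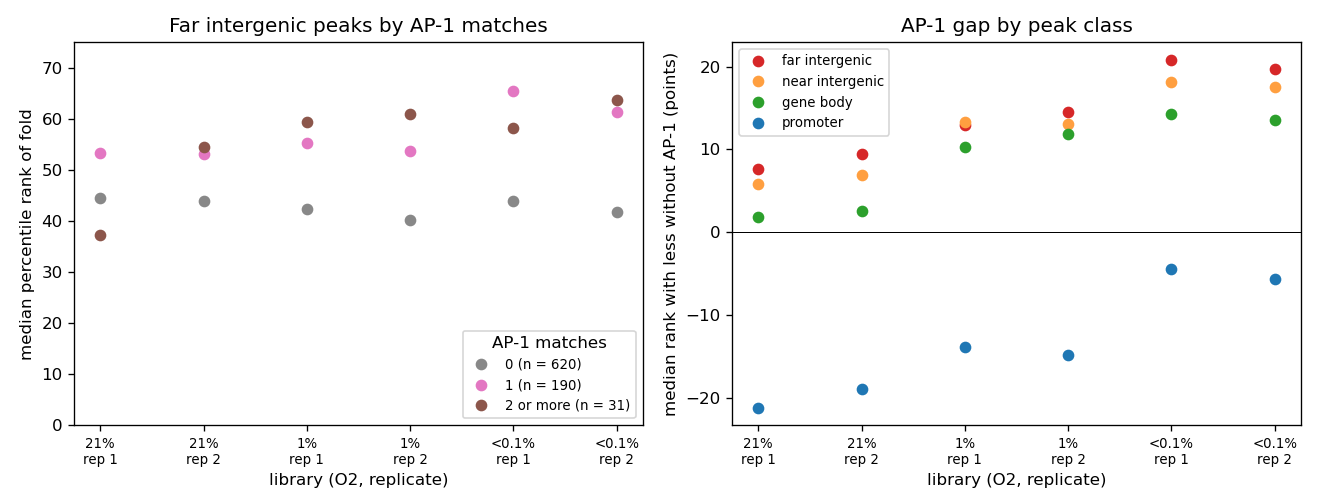
Left, median percentile rank of fold in each of the 6 libraries for far intergenic peaks with 0, 1 and 2 or more AP-1 matches. Right, median rank of peaks with the motif less that of peaks without it (points) in each library for 4 classes. In far intergenic peaks the gap runs from 7.66 at 21% O2 to 20.8 at <0.1% O2, and it moves upward in all 4 classes.

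The largest rise at both levels was at the peak whose sequence has AP-1 on each strand, chr7:117090674-117091219, 289760 bp from Xylt1, the enzyme that starts glycosaminoglycan chains on proteoglycans. Its fold was 5.70 and 6.55 in normoxia, 15 and 14.1 at 1% and 15.2 and 13.9 at <0.1% O2. Its pileup was 17 and 21, then 70 and 64, then 89 and 65 fragments. The rank rose by 63.3 points at 1% and 72.2 points at <0.1% O2, and no hypoxic library overlapped a normoxic one. Next at <0.1% O2 was chr17:10378479-10379037, 59099 bp from Qk, which encodes the RNA-binding protein Quaking that controls splicing in glia. Its fold was 7.19 and 6.58, 15.6 and 12.9, and 16.0 and 13.1 in the same order, a rise of 52.5 and 63.6 points.

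Rises also occurred with no AP-1 match. The peak chr8:115375159-115375811, 331285 bp from Maf, a bZIP transcription factor, had folds of 4.75 and 6.25 in normoxia, 13.6 and 12.7 at 1% and 11.4 and 11.5 at <0.1% O2, and rose by 56.7 and 53.1 points. The peak chr10:68795540-68795863, 71794 bp from Tmem26, had folds of 7.60 and 7.86, 18.5 and 13.0, and 12 and 12.2, with the 1% O2 libraries apart by more than the others. Peaks nearest to Tmem65 and Fam3c, a secreted factor, rose by 48.7 and 53.3 points at <0.1% O2. The remaining named rises, nearest to Setbp1 and Dsc3, both with AP-1 matches, were of 55.6 and 53.3 points.

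**Figure D4:**
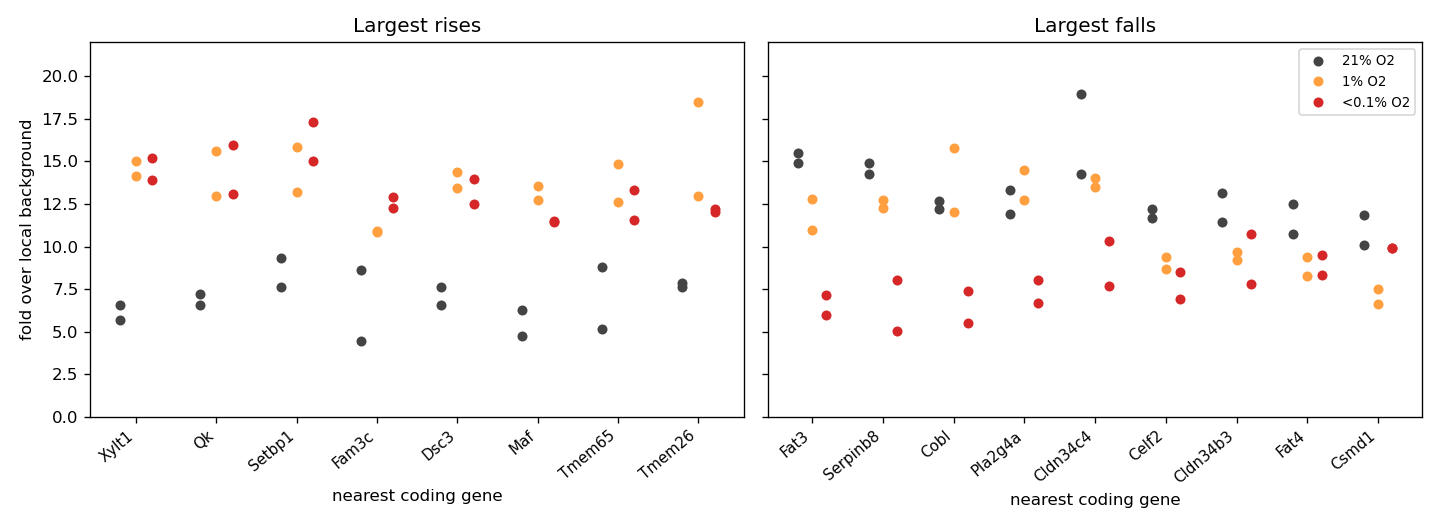
Fold over local background in each library (2 points per condition) for the far intergenic peaks with the largest called rises (left) and falls (right) in fold rank at 1% or <0.1% O2, labelled by the nearest coding gene. In the rises all 4 hypoxic libraries lie above both normoxic ones, while Cobl and Pla2g4a are lower at <0.1% O2 and overlap normoxia at 1% O2.

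The largest falls at <0.1% O2 were of another kind of sequence. All 5 had summit windows that are 63.2 to 100% repeat-masked in the assembly, widths of 851 to 1865 bp and no AP-1 match. The largest was chr9:16625623-16627000, 124338 bp from Fat3, which encodes an atypical cadherin. Its fold was 15.5 and 14.9 in normoxia, 10.9 and 12.8 at 1% and 7.13 and 5.98 at <0.1% O2, so the conditions were in order and did not overlap, and the rank fell by 38.6 and 77.1 points. The peak chr1:108038970-108040834 fell by 74.6 points at <0.1% O2, with folds of 14.2 and 14.9 in normoxia and 8.05 and 5.02 at <0.1% O2. The peak chr11:12568765-12569615, 103805 bp from Cobl, an actin nucleator, had folds of 12.7 and 12.2, 15.8 and 12, and 7.36 and 5.50, thus lower at <0.1% O2 alone.

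Counting all of them, 75 of the 841 peaks (8.92%, exact interval 7.08 to 11.1%) had a summit window more than 50% repeat-masked, against 5.68% of nearer intergenic, 2.38% of gene body and 0.914% of promoter peaks. They were wide, with a median of 1172 bp against 676 bp for the others, and 3 of them held AP-1. At <0.1% O2, 30 of the 75 were called lower and 3 higher, against 126 lower and 157 higher of the other 766, where 19.9% of all ranked peaks were called lower and 19.3% higher. In pileup rank 19 were called lower and 1 higher, where 21.5% and 20.7% of all were. Their median fold rank was 47.9 and 26.6 in normoxia, 25.3 and 33.7 at 1% O2, and 23.4 and 19.8 at <0.1% O2. The normoxic libraries thus stood 21.3 points apart, and the median change at <0.1% O2, -9.79 points, was -2.58 without 21% O2 replicate 1, with 28 called lower and 15 higher, and -16.6 without replicate 2, with 48 lower and 5 higher. The call is looser for every peak when a library is left out. Among masked windows of nearer intergenic peaks 89 of 334 were called lower and 37 higher, and of gene body peaks 39 of 204 lower and 45 higher. The authors kept reads of high mapping quality, and how that filter acted on repeat copies was not tested.

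Some of these peaks shared sequence. When peaks were joined that share at least 25% of their 16-base words, a step chosen after the values had been seen, 54 of the 841 fell into 4 groups of 18, 17, 12 and 7, and 49 of the 54 had masked windows. In the group of 18, on 10 chromosomes, 11 were called lower and 1 higher at <0.1% O2, where 19.9% and 19.3% of all ranked peaks were, and all 5 of the largest falls belonged to it. Its median fold was 13.7 and 13.0 in normoxia, 13.1 and 12.9 at 1% and 9.81 and 8.22 at <0.1% O2. In the group of 7, 6 were called lower and 0 higher, with a median fold of 11.2 and 11.4, 11.2 and 11.1, and 6.67 and 6.70. In both groups the <0.1% O2 libraries lay below the other four. The groups of 17 and 12 had median fold ranks of 4.77 to 47.9, scattered between replicates, and 4 and 2 of their peaks were called lower and 2 and 0 higher.

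Peaks outside the set that share words with these groups were then read. Of 17 such peaks for the group of 7, 10 were called lower and 0 higher at <0.1% O2, and of 59 for the group of 18, 22 lower and 3 higher. Of 56 for the group of 17, 1 was called lower and 5 higher, and of 24 for the group of 12, 3 lower and 0 higher, where 19.3% of all ranked peaks were called higher and 19.9% lower. Joining at 50% of words left 7 smaller groups, with median changes from -74.6 to 11.3 points. The peaks of the group of 18 that stayed joined made a group of 3, all called lower, and a group of 4 with a median change of -0.958 points and 0 called lower and 1 higher, and no peaks of the group of 7 stayed joined. The groups as drawn therefore depend on that share.

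**Figure D5:**
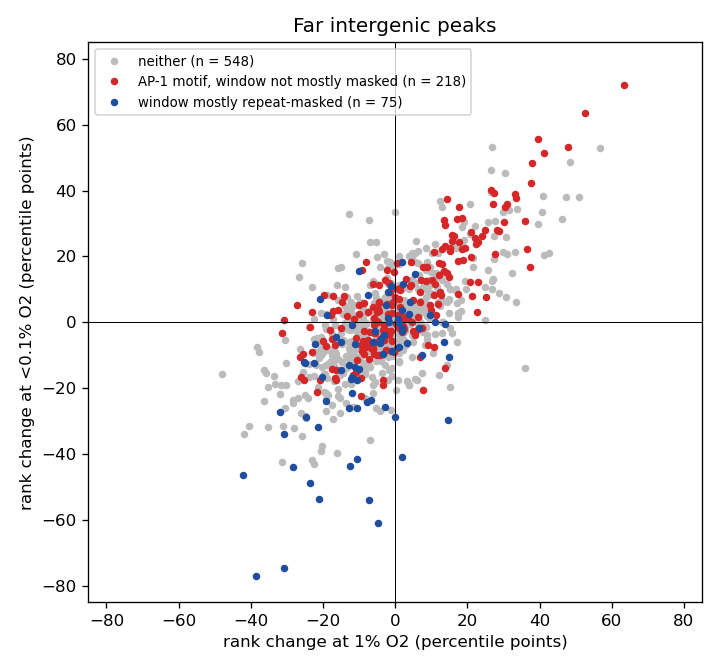
Change of fold rank (percentile points) at <0.1% O2 (y axis) against that at 1% O2 (x axis) for the 841 far intergenic peaks, each less the mean of the same 2 normoxic libraries, so that the axes are not independent. The largest rise at both levels, 63.3 and 72.2 points, is at a peak with an AP-1 motif, and the 5 largest falls at <0.1% O2 are at peaks with a mostly repeat-masked window.

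At 1% O2 the largest fall was at chr8:17600279-17600996, 64998 bp from Csmd1, a complement-control protein, a peak with 0% of its window masked. Its fold was 11.9 and 10.1 in normoxia, 6.62 and 7.51 at 1% and 9.92 and 9.88 at <0.1% O2, so 1% O2 lay below both other conditions. The rank fell by 48.1 points at 1% O2 and the change at <0.1% O2, -15.7 points, was not called. The next falls, nearest to Celf2, Cldn34b3 and Fat4, were of 42.3, 41.9 and 40.5 points at 1% O2, and these were called lower at <0.1% O2 too.

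The peaks were read against gene lists by the nearest coding TSS. Of 32 hypoxia genes, which include targets of HIF, 24 had a promoter peak but 1 had a far peak, which is not described here.

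Of 49 glial and glioma genes, 10 had 20 far peaks between them, of which 4 were called higher and 4 lower at 1% O2, and 5 higher and 3 lower at <0.1% O2. With 20 peaks these counts lie near the shares of all ranked peaks, 16.6% and 18.5% at 1% O2 and 19.3% and 19.9% at <0.1% O2. Sox2, a factor of neural stem cells, had 3 peaks 433990 to 501855 bp away, and 2 of them were called higher at <0.1% O2. The tallest, chr3:35152260-35152935, had folds of 12.6 and 17.5 in normoxia, 19.5 and 17.6 at 1% and 16.3 and 15.3 at <0.1% O2, so both 1% libraries lay above the others and <0.1% O2 overlapped normoxia. Sox9, a glial regulator, had 4 far peaks, 3 with AP-1 and 2 called higher at each level. Its tallest, chr11:113000947-113001534, was not called in fold rank: its fold was 12 and 15.5, 17.0 and 15.2, and 14.6 and 14.3. In pileup rank it was called higher at <0.1% O2, by 18 points, with pileups of 60 and 98 fragments in normoxia and 152 and 135 at <0.1% O2. The peaks nearest to Pdgfa, a growth factor ligand of glioma cells, had changes of 18 and 26.2 points at <0.1% O2, of which 1 was called higher. The single peaks nearest to Cd44, the hyaluronan receptor, and Myc fell by 25.3 and 27.6 points at <0.1% O2, and both were called lower at 1% O2 as well.

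Of 19 genes of AP-1 and its partners, 4 had 9 far peaks, 3 called higher and 2 lower at 1% O2 and 3 higher and 1 lower at <0.1% O2, where 16.6% and 18.5%, and 19.3% and 19.9%, of all ranked peaks were. The 4 near Maf differed among themselves. The peak with 2 AP-1 matches on the same strand, chr8:115770854-115771798, had folds of 13.9 and 15.6 in normoxia, 14.9 and 15.3 at 1% and 15.6 and 13.8 at <0.1% O2, which overlap. In fold rank it was called lower at 1% O2, by -10.8 points, while its pileup rank change was 6.32 points. Its mean fold rank in normoxia was 92.9, so a rise of 10 points was not possible. A peak 53265 bp from Runx3, chr4:135066814-135067387, rose by 29.9 and 33.6 points, with folds of 8.86 and 8.34, 13.2 and 13.8, and 14.2 and 11.2. Of 14 neuronal genes, 3 had 7 far peaks, among them tall ones nearest to Dlx2, Syt1 and Neurod1 with mean ranks of 98.2, 95.3 and 92.1, while the other 4, nearest to Dlx2 and Neurod1, had mean ranks of 3.23 to 30.7. The 10 immune and 5 endothelial genes had 0 far peaks.

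The 841 peaks had 536 nearest coding genes. Fign, which encodes a microtubule-severing protein, and Nfe2l3, a CNC bZIP factor, had 8 peaks each, Qk had 7, and Bcat1, Cited2 and Has2 had 6 each. Has2 makes hyaluronan, Bcat1 breaks down branched-chain amino acids and Cited2 restrains HIF by binding its co-activators. Around Qk 3 of 7 peaks held AP-1, and 3 were called higher and 2 lower at 1% O2, and 3 higher and 0 lower at <0.1% O2. Around Fign 1 of 8 held it, with 1 higher and 3 lower at 1% O2 and 0 higher and 2 lower at <0.1% O2. Over all ranked peaks the shares were 16.6% and 18.5% at 1% and 19.3% and 19.9% at <0.1% O2. The 8 peaks near Nfe2l3 held none, with 1 called higher and 1 lower at <0.1% O2. Cd47, Cdh6, Chl1 and Csmd1 followed with 5 peaks each, as did genes tied with them.

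The peaks were spread over all chromosomes except Y, with the most on chromosome 2 (82) and the fewest on chromosome 19 (6). They made up 5.25% of the 3-condition peaks of the X chromosome and 5.08% of those of chromosome 16, but 0.729% on chromosome 19. Background over genome coverage differed by chromosome: its median was 1.01 on X and 1.37 on chromosome 16, and 2.56 on chromosome 6 and 2.34 on chromosome 8. The genome coverage is also the lowest background of a library, so 1 is the floor, and on X the median of every library was 1. Pileup over genome coverage followed it, with 16.0 on X and 18.9 on chromosome 16 against 29.7 and 29.9 on chromosomes 6 and 8, while the median fold was 9.49, 10.2, 10.4 and 10.2. What sets these levels was not tested.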

How the data were processed

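GL261 ATACseq peaks were taken from 6 deposited lists, 2 for each oxygen level. Alignment by the authors was to mm10 with Bowtie2 2.2.5; they kept reads with mapping quality above 30, and called peaks in each library with MACS2 2.1.1.2 at q below 0.001. The deposited fold is a ratio of the summit to a local background, and the p-value and q-value are given by the authors as −log10. Fold and p-value together fix the summit pileup and the background, which were recovered for 100% of peaks (tolerance 0.01 on −log10 p). Read totals are not known.

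Replicate overlaps over 200 bp were merged across conditions. Ranks, calls and exact permutation tests are described with the results. Binomial intervals cover counting error only. GC content, repeat masking and sequence came from the RefSeq copy of GRCm38.p6, within whose chromosome lengths all peaks lay, and motifs were sought within 100 bases of the summit in the library with the highest fold. Read counts were not used here.

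The members and lists were chosen with earlier results of these data known. The peaks named were the 5 tallest, the 5 farthest, the 5 largest called rises and falls at each level, up to 3 per gene list, the 3 on each side of 50000 bp, and the 10 coding genes with most peaks. Others were named after their values were seen: the peaks near Cd44, Myc and Pdgfa, the further Sox2 and Sox9 peaks and the peak with most AP-1 matches. The calls and pileup recovery were tested on simulated data. Scripts ran under Python 3.11.15 with scipy 1.17.1, numpy 2.4.6, pysam 0.24.0, pandas 2.3.3 and matplotlib 3.10.9. The peak nearest to a gene of the hypoxia list is not reported here.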

Additional observations from a re-analysis of the deposited data

Results flagged for a closer look

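The median pileup rank of the far intergenic peaks lay below both normoxic libraries in both 1% O2 libraries and above them in both <0.1% O2 libraries. It changed by -0.815 points at 1% O2 and by 4.71 points at <0.1% O2, and the levels compared with each other gave an exact permutation p of 0.333, the smallest that 2 libraries against 2 allow. The peaks without AP-1 had opposite changes of the same kind, -3.24 and 1.03 points, as did the peaks whose windows are not mostly repeat-masked, -0.666 and 5.58 points. For these last sets the difference between the levels was not tested. In fold rank the libraries of these 3 sets were not so opposed. Among single peaks, opposite sides at both levels were seen in 3.45% of the far intergenic peaks and 4.17% of all ranked peaks.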

How the results depend on the processing

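The number of far intergenic peaks lay between 851 and 940 with a replicate left out, while TSSs of coding genes alone gave 2686 and a limit of 100000 bp 228. The difference in fold rank from other peaks, -3.89, reversed to 0.565 over 100000 bp (exact p = 0.594) and was -0.591 with −log10 q of at least 10 in every library (exact p = 0.5). With a replicate left out it was -4.52 to -3.28, where the exact test cannot go below 0.0625. The median change at 1% O2, -2.23, reversed to 1.89 when the whole list of each library was ranked. That at <0.1% O2 was 1.84 for pileup, 1.63 for −log10 q, 2.60 for whole lists and -3.47 with the GC trend subtracted.

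Whole lists gave 111 called lower at 1% and 100 at <0.1% O2, where 8.57% and 12.7% of all ranked peaks were. Against 1% O2, 44 were called lower by pileup, 55 by −log10 q and 93 to 145 with a replicate left out, the highest without 1% O2 replicate 2, and the GC trend gave 110 higher and 144 lower. Leaving out a replicate of either condition compared loosens the call. Calls at 20 points were 72 higher and 83 lower at 1% (7.72% and 6.31% of all ranked peaks), 94 and 68 at <0.1% (8.92% and 8.82%), and 47 and 40 between the levels (3.99% and 5.29%). Over 100000 bp, with fewer peaks and calls at 10 points, 34 were higher and 52 lower at 1% (16.6% and 18.5% of all ranked peaks). The calls were 41 and 43 at <0.1% (19.3% and 19.9%), and 45 and 28 between the levels (15.8% and 15.2%). The AP-1 gap change at <0.1% O2, 11.7, was 10.5 for pileup, 9.91 for −log10 q, 8.87 for whole lists, 10.3 without the X chromosome, 8.78 with −log10 q of at least 10 and 6.98 over 100000 bp. At 1% O2 it was 3.64 for whole lists and reversed to -0.478 over 100000 bp. The cause of these changes was not tested.

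The AP-1 share was 18.9% within 50 bases of the summit, 32.8% within 200 bases and 19.3% around the midpoint, and the CTCF share 0.238% around the midpoint and 0.439% over 100000 bp. The Maf peak chr8:115770854 reversed at 1% O2 to 6.32 for pileup and 2.93 for −log10 q. Of 626 recomputed changes of named peaks 601 kept their call, 23 lost it and 2 reversed. Part of the 601 was fixed in advance. Leaving out a library of the condition not compared cannot alter a call. Leaving out a compared library, or pairing libraries by replicate number, only loosens the order required of them. How many of the 601 were free to change was not counted, so that number does not measure how firm the calls are.

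The replicate numbers share no stated batch, and same-numbered libraries did not deviate together (correlations of replicate differences across the far intergenic peaks -0.187, -0.0411 and 0.0153). With the replicate block the calls were 147 higher and 220 lower at 1%, 171 and 166 at <0.1% and 186 higher between the levels, with no count moved by over 1.5 times. Crossed numbers, added after seeing the data, gave 152 and 227, 174 and 177, and 177 and 103. Leaving out masked windows, also added later, gave 157 higher and 126 lower at <0.1% O2. Read totals are unknown, so the smallest height detectable in each library was not set.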
